A study of Drosophila melanogaster with 90 samples.

Results

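Heads of female Drosophila melanogaster taken 5 h after mating to a wildtype male were compared with heads taken 5 h after mating to a male null for Sex Peptide. The comparison held 6 of the 87 libraries analysed, chosen by the treatment and time in their labels. They were 3 wildtype-mated and 3 SP-null-mated libraries, 1 of each in repeats A, B and C of the whole experiment, which the series text calls biological replicates. The labels listed 90 samples in all, with virgins and both mated groups at 10 times from 0.5 to 24 h after mating, and 3 virgin libraries at 5 h are used below as unmated females of the same time of day. All these samples were labelled Canton-S, a standard wildtype strain, and flies were kept on a yeast and glucose food at 25 °C with 12 h of light from 8 AM. Matings fell between 8 AM and 11 AM. The age of the females, the number of heads in a library, and the strain and allele of the SP-null males were not stated in the labels. Both groups copulated, so the comparison sets mating to a wildtype male against mating to an SP-null male. It holds receipt of Sex Peptide together with any other difference between the males or the matings, whose part was not tested.

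Sex Peptide is a short peptide made in the male accessory gland and passed to the female in seminal fluid. It acts through the Sex Peptide receptor on sensory neurons of the reproductive tract, and is known for lowering the readiness of mated females to remate, for raising egg laying and feeding, and for raising the synthesis of juvenile hormone and of antimicrobial peptides. The head holds the brain and compound eyes, and also a layer of fat body, the insect tissue for nutrient storage, secretion and humoral immunity.

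The 6 libraries held between 15585467 and 22566336 counts, within the range of 15411046 to 103387056 over all 87 libraries. The head label was met by its markers. Over the 6 libraries, 15 photoreceptor markers summed to between 39817 and 47011 CPM, which are counts relative to library size, and 12 neuron markers to between 4446 and 4896 CPM. Of the listed genes of the eggshell, 2 of 14 were among the genes analysed, and of the midgut enzymes and male accessory gland proteins 0 of 17 and 0 of 12. The authors counted 9027 genes, and 9024 were tested. CPM here use the trimmed mean of M-values (TMM), log2 fold changes are wildtype-mated minus SP-null-mated, and a gene is called at an adjusted p under 0.05 in edgeR's quasi-likelihood test. The p-values measure the spread between the repeats, with 1 estimate of spread shared by all groups.

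Among these 9024 genes 68 (0.754%) differed between the mated groups. Of these, 50 (0.554%) were higher in wildtype-mated heads and 18 (0.199%) were lower. Without adjustment 983 genes had a p under 0.05. The higher genes took in the transcription factor gene CrebA, the amino acid breakdown genes LKRSDH and Tdh, the growth and RNA polymerase I genes Myc and Polr1A, the hormone and sex factors Kr-h1 and dsx, and a group of immune genes. The lower genes took in Obp56d and Obp56e, the fatty acid elongase gene sit and the lipid droplet gene Seipin. Most differences were modest. The higher genes ran from a log2 fold change of 0.19 to 6.93 with a median of 0.57, and 13 of 50 reached 1, a fold of 2. The lower genes ran from -0.29 to -1.41 with a median of -0.48, and 1 of 18 reached that size. All 3 wildtype-mated libraries lay above all 3 SP-null-mated libraries for 47 of the 50 higher genes, and below them for 18 of 18 lower genes, where 8.79% and 7.75% of all genes tested were so ordered. The 3 exceptions were CecA1, CecC and Drs. Of the higher genes 17 and of the lower genes 6 overlap a gene on the other strand. The libraries were stranded per the labels, but the sources used here do not say whether the counting used strand. In a bulk sample, fewer cells of a type and less RNA per cell cannot be told apart.

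The number of calls rested on all 3 repeats. Without repeat A of the whole series 0 genes were called by edgeR, with 745 at an unadjusted p under 0.05, without repeat B 15 and without repeat C 9. Leaving out a single library of the 6 gave between 18 and 41 calls, with 26, 38 and 19 without wildtype-mated A, B and C, and 18, 41 and 20 without SP-null-mated A, B and C. In each of these 6 fits at least 67 of the 68 genes kept their sign, the exception being CecC without wildtype-mated B. The kept signs do not test the direction, since the 68 genes were chosen with these same libraries. For most of them the groups do not overlap, so leaving out a library could hardly reverse the sign. CrebA, tun, ZnT77C and Jhbp12 were called in 6 of 6 of these fits. With the repeat as a block 117 genes were called, among them all 68, and 83 of the 117 were higher.

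**Figure D1:**
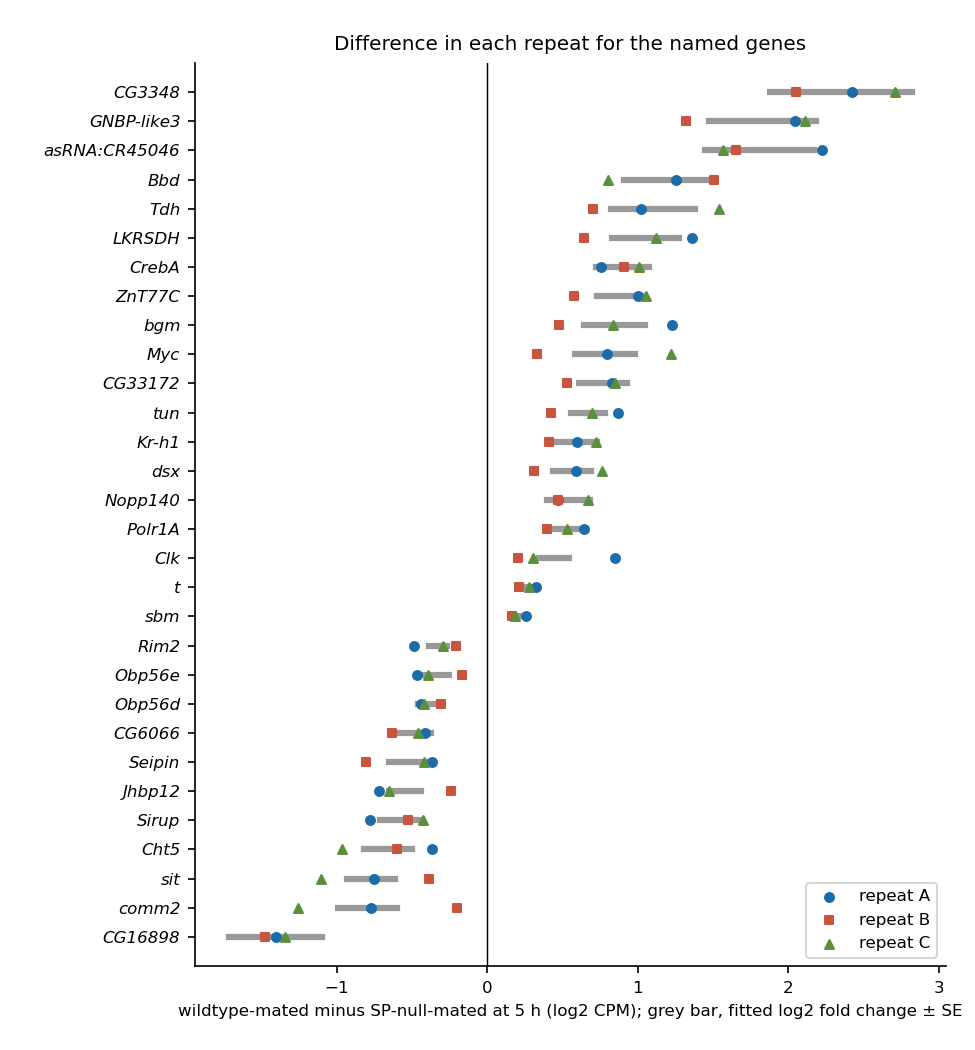
Difference between wildtype-mated and SP-null-mated heads at 5 h in each repeat (symbols, log2 CPM) and fitted log2 fold change with its SE (grey bars), for the called genes named by rule other than the antimicrobial peptide genes. All 3 symbols of each gene lie on the same side of 0.

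The 3 higher genes called in each single-library fit encode a transcription factor, an amidase and a metal transporter. CrebA (FBgn0004396, chromosome 3L, 15535395 to 15553214 in BDGP6, + strand) encodes a leucine zipper factor that drives genes of the secretory pathway. It stood at 51.8, 61.9 and 64.3 CPM in wildtype-mated repeats A, B and C, and at 30.6, 33.002 and 31.9 CPM in SP-null-mated repeats A, B and C. The lowest wildtype-mated library was well above the highest SP-null-mated library, and the virgins, at 34.7, 33.95 and 34.5 CPM, lay close to the SP-null-mated heads. The log2 fold change was 0.90 ± 0.175 (SE, n = 3 each, adjusted p 0.00347). The gene tun (FBgn0034046, chromosome 2R, 15794000 to 15855645, + strand), which encodes an amidase of N-terminal glutamine, stood at 113, 90.5 and 112 CPM against 61.5, 67.5 and 69.3 CPM, without overlap (0.67 ± 0.112, adjusted p 0.00112). It overlaps 4 genes on the other strand. ZnT77C (FBgn0037000, chromosome 3L, 20484293 to 20494921, - strand), a zinc transporter gene, stood at 12.7, 13.1 and 14.3 CPM against 6.29, 8.79 and 6.83 CPM. Again the groups did not overlap (0.88 ± 0.155, adjusted p 0.00117), and the virgins, at 6.74, 7.85 and 5.48 CPM, lay in or near the SP-null-mated range.

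Genes of amino acid and lipid metabolism were among the calls, where 0.554% of all genes were called higher. LKRSDH (FBgn0286198), the bifunctional enzyme that starts lysine breakdown, stood at 42.5, 33.2 and 42.99 CPM in wildtype-mated and 16.5, 21.2 and 19.7 CPM in SP-null-mated repeats A, B and C. Each wildtype-mated library exceeded each SP-null-mated library, and the fold was 2.07 (log2 1.05 ± 0.222, adjusted p 0.00821). Tdh (FBgn0036997), which encodes a threonine dehydrogenase, stood at 40.8, 40.9 and 54.8 CPM against 20.05, 25.1 and 18.8 CPM (log2 fold change 1.10 ± 0.277, adjusted p 0.0354). The groups did not overlap, but Tdh was called in 0 of the 6 single-library fits. Among 11 other tested genes of amino acid breakdown, a list that holds neither of these, 0 were called by edgeR or DESeq2 and 0 had an unadjusted p under 0.05 (median log2 fold change 0.06, against 0.00 over all genes). The very long chain acyl-CoA synthetase gene bgm stood at 423, 329 and 418 CPM against 181, 236 and 234 CPM. It was the 1 gene called of 11 tested for fatty acid synthesis (log2 fold change 0.85 ± 0.201, adjusted p 0.0234; list median 0.04), and its virgin libraries, at 292, 404 and 304 CPM, lay between the mated groups or within the wildtype-mated range. The amino acid transporter gene sbm was the 1 gene called of 11 on the transporter list, at 213, 185 and 205 CPM against 178, 165 and 181 CPM (0.20 ± 0.0527, adjusted p 0.0429; list median 0.06). The sbm call was lost with median-of-ratios (RLE) scaling, at an adjusted p of 0.0507. On the lists of 17 genes of sugar response, 10 of lipid storage and 17 of insulin and TOR signalling 0 genes were called by edgeR or DESeq2, and at an unadjusted p under 0.05 there were 0, 0 and 2.

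Genes for making ribosomes and genes for the proteins of the ribosome lay on opposite sides of 0. Of 18 tested ribosome biogenesis genes, 3 rose, 0 fell and 15 were not called, where 0.554% of all genes rose. All 18 log2 fold changes were above 0, with a median of 0.31 against 0.00 over all genes, and all wildtype-mated libraries lay above all SP-null-mated libraries for 11, where 8.79% of all genes were so ordered. Polr1A, the largest subunit of RNA polymerase I, stood at 36.9, 34.6 and 35.96 CPM in wildtype-mated and 23.6, 26.3 and 24.9 CPM in SP-null-mated repeats A, B and C (0.53 ± 0.115, adjusted p 0.012). Myc, the growth-promoting factor, stood at 60.2, 63.99 and 84.9 CPM against 34.7, 50.9 and 36.4 CPM (0.78 ± 0.199, adjusted p 0.0381). The nucleolar gene Nopp140 stood at 35.9, 41.2 and 41.3 CPM against 25.9, 29.7 and 25.9 CPM (0.54 ± 0.143, adjusted p 0.0471). In each of these 3 genes the lowest wildtype-mated library was above the highest SP-null-mated library, which was repeat B each time. The calls were lost in most single-library fits, with between 0 and 2 of the 18 genes called, where 18 to 41 of all 9024 genes were. With the replicate block 6 were called, where 117 of all 9024 genes were. By repeat the median difference of the list was 0.43 in A, 0.18 in B and 0.48 in C. A further 3 called genes, chosen here after their values were seen, are known for the same process. They were Polr1C, a subunit shared by RNA polymerases I and III (0.47 ± 0.116, adjusted p 0.0315), the nucleolar gene Mybbp1A (0.49 ± 0.13, adjusted p 0.0471) and the ribosomal RNA processing gene Rrp5 (0.49 ± 0.128, adjusted p 0.0454).

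The other lists of protein synthesis had 0 calls. Of 85 cytosolic ribosomal protein genes, 83 had a log2 fold change below 0, with a median of -0.18. For 53 of them all wildtype-mated libraries lay below all SP-null-mated libraries, where 7.75% of all genes were so ordered. Neither edgeR nor DESeq2 called any, and 13 had an unadjusted p under 0.05, as had 983 of all 9024 genes. The median difference of these genes was -0.15 in repeat A, -0.33 in B and -0.09 in C. At 3 h 83 of the 85 lay above 0 (median 0.18), again with 0 called by edgeR. Of 20 cytosolic aminoacyl-tRNA synthetase genes, which charge transfer RNAs with amino acids, 19 lay above 0 (median 0.14), the wildtype-mated libraries were all higher for 11 (8.79% over all genes), and 8 had an unadjusted p under 0.05. Of 23 genes of folding and secretion in the endoplasmic reticulum 22 lay above 0 (median 0.10), and 3 had an unadjusted p under 0.05. On both lists edgeR and DESeq2 called 0 genes. Nuclear genes of oxidative phosphorylation gave 51 of 58 below 0, with a median of -0.09, but by repeat their median difference was -0.16 in A, -0.17 in B and 0.06 in C, so the direction was not shared, and edgeR and DESeq2 called 0 of them, with 2 at an unadjusted p under 0.05. Of 71 mitochondrial ribosomal protein genes and 31 proteasome genes 0 were called by either tool (medians -0.02 and -0.03), with 7 and 0 at an unadjusted p under 0.05. All 12 neuron markers also lay above 0 (median 0.08, 0 called), summing to between 4698 and 4896 CPM in wildtype-mated and between 4446 and 4681 CPM in SP-null-mated heads, and 13 of 15 photoreceptor markers did (median 0.10, 0 called), with summed levels that overlapped. Of 9 glia and 15 muscle markers 3 and 9 lay above 0 (medians -0.04 and 0.01), with 0 called by edgeR or DESeq2 and 0 at an unadjusted p under 0.05. The part of cell type makeup in these lists was not tested.

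**Figure D2:**
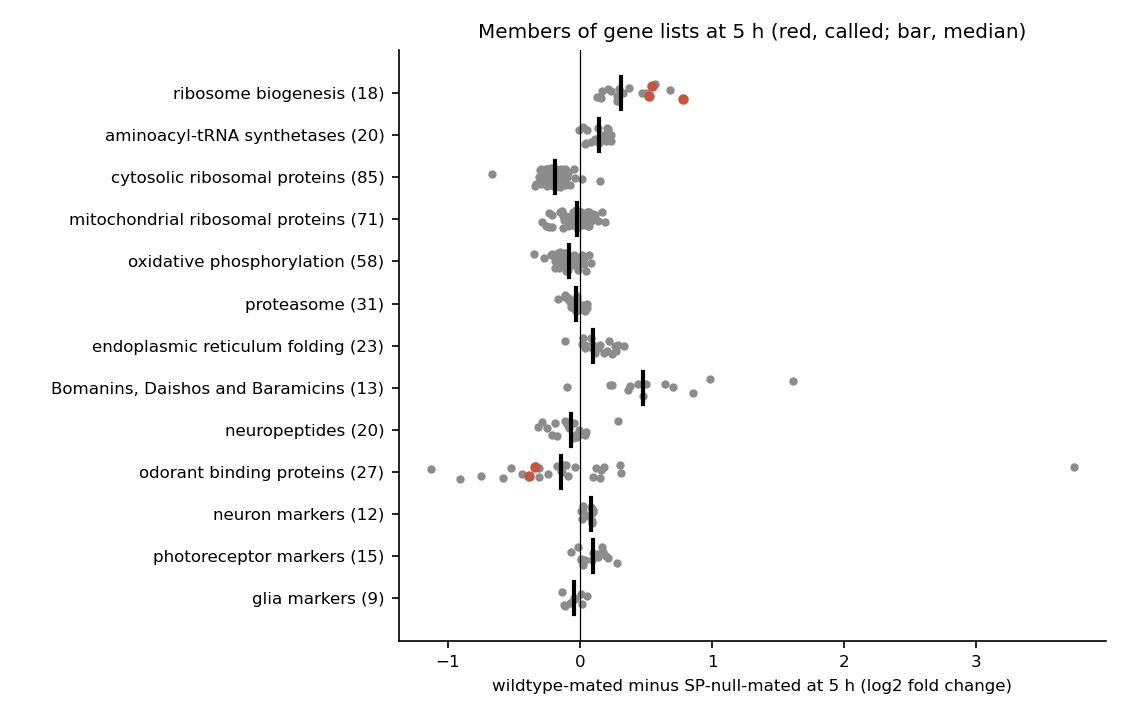
Log2 fold change at 5 h (wildtype-mated minus SP-null-mated) of each tested member of 13 gene lists, with the number of members in brackets, called genes in red and the list median as a bar. Ribosome biogenesis genes all lie above 0 and 83 of 85 cytosolic ribosomal protein genes below it; the odorant binding protein gene farthest right is Obp59a, with 1, 2 and 1 counts in wildtype-mated and 0 in each SP-null-mated library, so its fitted place is not a measured fold.

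Factors tied to hormones, sex and the clock were each called as single members of their lists, where 0.554% of all genes were called higher. Kr-h1, a zinc finger factor induced by juvenile hormone, stood at 21.9, 21.5 and 23.1 CPM in wildtype-mated and 14.5, 16.1 and 13.9 CPM in SP-null-mated repeats A, B and C (0.58 ± 0.151, adjusted p 0.0432). It was 1 of 9 tested genes of juvenile hormone response, synthesis and breakdown to be called (list median 0.01), and it was called in 0 of the 6 single-library fits. The gene dsx, which encodes the sex determination factor Doublesex, stood at 48.6, 46.6 and 57.1 CPM against 32.2, 37.6 and 33.7 CPM (0.56 ± 0.125, adjusted p 0.0149). The lowest wildtype-mated library exceeded the highest SP-null-mated library in both genes. dsx overlaps lds on the other strand, and lds was itself called (0.67 ± 0.156, adjusted p 0.0195). Of the 10 listed genes of the Sex Peptide receptor and its circuit dsx was the 1 called. The receptor gene SPR stood at 49.4, 49.9 and 46.3 CPM against 49.3, 53.1 and 45.1 CPM, with overlapping groups and a log2 fold change of -0.02 ± 0.0774 (adjusted p 0.962). The clock factor gene Clk stood at 42.4, 35.2 and 43.3 CPM against 23.5, 30.5 and 35.05 CPM and was the 1 called of 8 clock genes (0.44 ± 0.101, adjusted p 0.0186; list median 0.02). Highest SP-null-mated and lowest wildtype-mated Clk values were almost level, and Clk overlaps another gene on its own strand. The gene t, whose enzyme releases histamine and dopamine from their beta-alanine conjugates, stood at 304, 262 and 306 CPM against 243, 226 and 253 CPM (0.27 ± 0.0621, adjusted p 0.0185), the 1 called of 11 genes of monoamine synthesis and transport. Virgins had 303, 296 and 299 CPM of t, as high as the wildtype-mated heads. Among 13 ecdysone genes, 11 activity-regulated genes and 20 neuropeptide genes 0 were called by edgeR or DESeq2, and 2, 2 and 3 had an unadjusted p under 0.05.

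Large differences outside the lists included those of a protein-coding gene of unnamed function and of a noncoding RNA. CG3348 (FBgn0040609, chromosome 3R, 27291535 to 27292209, - strand) stood at 63.1, 60.4 and 41.5 CPM in wildtype-mated and 11.7, 14.5 and 6.26 CPM in SP-null-mated repeats A, B and C. That is a 5.10-fold difference without overlap (log2 2.35 ± 0.469, adjusted p 0.00443), and virgins had 8.997, 4.73 and 5.12 CPM. CG3348 overlaps Hmu on the other strand. asRNA:CR45046 stood at 64.7, 50.04 and 61.6 CPM against 13.8, 15.8 and 20.7 CPM (1.81 ± 0.364, adjusted p 0.00468). Its locus overlaps fit and CG34148 of the same strand, so its reads and theirs cannot be told apart with certainty. The gene fit, which encodes a secreted signal of protein satiety from the head fat body, stood at 724, 491 and 708 CPM against 364, 529 and 559 CPM. Its groups overlapped and it was not called (0.41 ± 0.293, adjusted p 0.665). CG33172 rose from 1.80, 1.84 and 1.61 to 3.26, 2.69 and 2.97 CPM in repeats A, B and C (0.77 ± 0.159, adjusted p 0.00821), and overlaps another gene on its own strand.

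Immune genes held the largest fold changes, and in several of them 1 wildtype-mated library held most of the counts. GNBP-like3 (FBgn0034511, chromosome 2R, 20526311 to 20526825, + strand), named for its likeness to microbe-binding proteins, stood at 53.5, 51.1 and 71.8 CPM in wildtype-mated and 12.9, 20.4 and 16.6 CPM in SP-null-mated repeats A, B and C. Each wildtype-mated library was more than 2-fold above each SP-null-mated library, and the log2 fold change was 1.83 ± 0.356 (adjusted p 0.00347). Bbd, or Bombardier, lies nearby on the same strand (20534245 to 20535835) and is known to be needed for Bomanin peptides, the short effectors of the Toll pathway. It stood at 991, 1055 and 739 CPM against 415, 372 and 423 CPM (1.20 ± 0.293, adjusted p 0.0266). Virgins had 434, 775 and 546 CPM, so the virgin values spanned the gap between the mated groups. SPH93 and CG18563, serine protease homologue genes chosen here after their values were seen, had 60, 26 and 348 and 21, 21 and 72 counts in wildtype-mated repeats A, B and C, against 6, 2 and 6 and 5, 1 and 10 counts in SP-null-mated repeats (log2 fold changes 4.92 ± 0.874 and 2.90 ± 0.569, adjusted p 0.00117 and 0.00347). Both groups were apart in these 2 genes, but wildtype-mated repeat C held most of the counts. Without that library the log2 fold changes were 3.47 and 2.26.

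Of 13 Bomanin, Daisho and related peptide genes 12 lay above 0, with a median log2 fold change of 0.48, and for 11 the wildtype-mated libraries were all higher, where 8.79% of all genes were so ordered. The largest was BomBc3, at 92.5, 95.8 and 86.6 CPM against 38.01, 23.7 and 28.1 CPM, with an adjusted p of 0.0644. None was called by edgeR, 1 was called by DESeq2 (69 of all 9024 genes), and 6 had an unadjusted p under 0.05 (983 of all 9024). When edgeR was fitted to the 6 libraries alone 6 were called, where 49 of all 9011 genes tested in that fit were. Some genes on this list are near copies of each other, among which reads could be divided. Against virgins the list's medians were 0.12 for wildtype-mated and -0.46 for SP-null-mated heads, with 0 called by edgeR in each.

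Of 14 antimicrobial peptide genes 5 rose, where 0.554% of all genes rose, with a list median of 1.45. Each of the 5 had most of its counts in 1 library. Without wildtype-mated repeat B the list median was 0.91. The cecropin genes had high counts in wildtype-mated repeat B. CecB had 1, 234 and 4 counts in wildtype-mated repeats A, B and C and 0, 1 and 1 in SP-null-mated repeats, CecA1 had 1, 636 and 19 against 9, 14 and 0, and CecC had 1, 326 and 7 against 0, 13 and 0. Without wildtype-mated repeat B the log2 fold changes of CecB, CecA1 and CecC were 1.78, 0.39 and -0.09, and none was called. Near-identical cecropin copies could share reads. Drosocin (Dro) and Drosomycin (Drs) were highest in wildtype-mated repeat A. Dro stood at 607, 29.1 and 89.9 CPM against 19.9, 14.1 and 23.997 CPM (log2 3.64 ± 0.87, adjusted p 0.0246), and Drs at 446, 72.1 and 27.1 CPM against 19.1, 32.2 and 18.3 CPM (log2 2.97 ± 0.762, adjusted p 0.0412). Without wildtype-mated repeat A they were 1.63 and 1.09 and were not called. In Mtk, which encodes Metchnikowin, each wildtype-mated library (96.7, 37.7 and 87.4 CPM) exceeded each SP-null-mated library (17.4, 20.4 and 9.20 CPM), with an adjusted p of 0.151. The number of antimicrobial calls was 5 with the replicate block, 3 with DESeq2 and 0 in edgeR fits to the 6 libraries alone. Over all genes these fits called 117, 69 and 49. In the fit to the 6 libraries CecB and CecC did not pass the count filter and were not tested. The 7 tested hemocyte markers summed to between 851 and 1016 CPM in wildtype-mated and between 896 and 996 CPM in SP-null-mated heads, and the 9 tested genes secreted by head fat body had a median of -0.21, with 0 called by either tool and 1 at an unadjusted p under 0.05. The part of cell type makeup in the immune calls was not tested. All 4 Turandot stress peptide genes lay above 0 (median 0.65), with 0 called by edgeR or DESeq2 and 0 at an unadjusted p under 0.05. On the list of 17 genes of microbe recognition and its pathway edgeR called 0 and DESeq2 1 (median 0.05, 1 at an unadjusted p under 0.05).

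**Figure D3:**
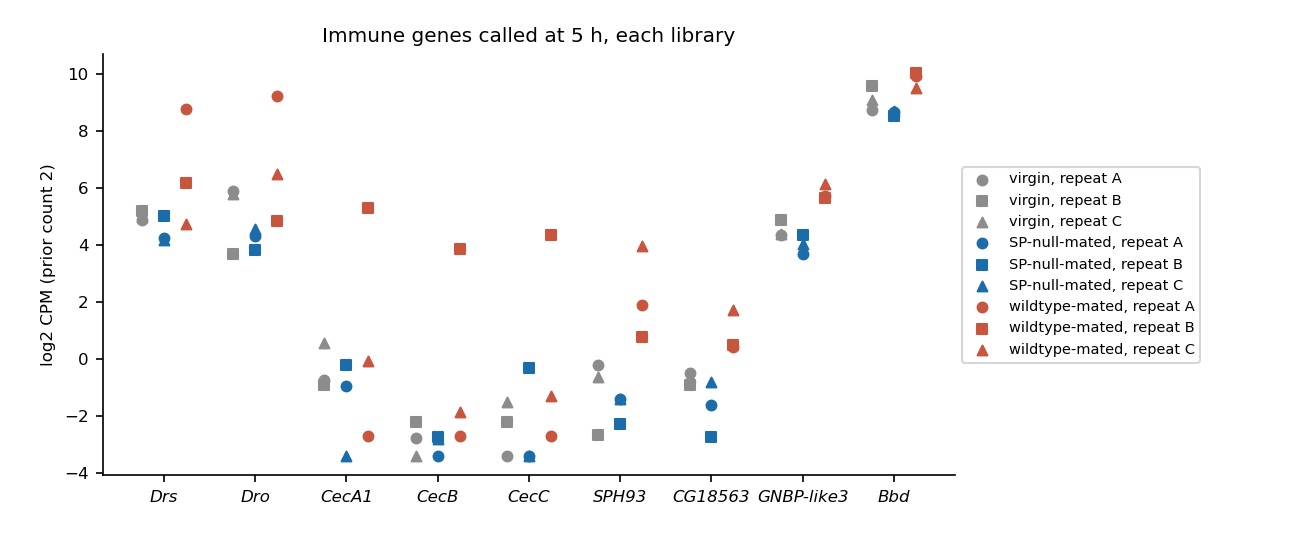
Level of 9 called immune genes (log2 CPM with a prior count of 2) in each virgin, SP-null-mated and wildtype-mated library at 5 h, with repeats as symbols. The cecropins are high in wildtype-mated repeat B alone, and Drs and Dro highest in wildtype-mated repeat A. GNBP-like3 is highest in the 3 wildtype-mated libraries. Bbd is higher in all 3 wildtype-mated than in all 3 SP-null-mated libraries, but virgin repeat B (775 CPM) lies above wildtype-mated repeat C (739 CPM).

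The lower genes were led by enzyme, transport and secreted protein genes of small to moderate change. CG16898 had the largest decrease, with 5.26, 6.57 and 7.35 CPM in wildtype-mated and 14.04, 18.4 and 18.8 CPM in SP-null-mated repeats A, B and C, without overlap (-1.41 ± 0.308, adjusted p 0.0121). Rim2, a mitochondrial nucleotide carrier gene, had 97.04, 114 and 108 CPM against 136, 131 and 133 CPM (-0.33 ± 0.0607, adjusted p 0.00234). Jhbp12, a member of the juvenile hormone binding protein family, had 10.9, 12.5 and 11.1 CPM against 18.01, 14.8 and 17.5 CPM (-0.55 ± 0.105, adjusted p 0.0032), and was the lower gene called in 6 of 6 single-library fits. Of 27 tested odorant binding protein genes 2 fell and 0 rose (list median -0.14), where 0.199% of all genes fell. These were the neighbours Obp56d, at 1216, 1429 and 1222 CPM against 1651, 1767 and 1639 CPM (-0.39 ± 0.0765, adjusted p 0.00366), and Obp56e, at 611, 775 and 687 CPM against 845, 869 and 903 CPM (-0.34 ± 0.0837, adjusted p 0.0315). Both are abundant, and the groups did not overlap in either.

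Single genes of lipid synthesis and storage were among the decreases, while 0 genes on the lists of fatty acid synthesis and lipid storage fell. The elongase gene sit had 3.87, 4.07 and 3.06 CPM against 6.57, 5.34 and 6.69 CPM (-0.77 ± 0.159, adjusted p 0.00525), and Seipin, whose protein shapes lipid droplets, had 19.2, 15.5 and 16.4 CPM against 24.8, 27.2 and 22.005 CPM (-0.53 ± 0.124, adjusted p 0.0193). Sirup, an assembly factor of mitochondrial complex II, had 93.8, 107 and 110.5 CPM against 161, 155 and 149 CPM (-0.57 ± 0.137, adjusted p 0.0238), and its virgins, at 162, 165 and 156 CPM, lay close to the SP-null-mated heads. Cht5, a chitinase gene, comm2, a relative of the axon guidance gene commissureless, and CG6066 had log2 fold changes of -0.66 ± 0.16, -0.80 ± 0.198 and -0.50 ± 0.133 (adjusted p 0.0246, 0.032 and 0.0471). In comm2 the SP-null-mated repeat C, at 26.98 CPM, stood apart from the other 5 libraries, at 8.64 to 14.8 CPM. Without it the log2 fold change of comm2 was -0.44 and the call was lost (adjusted p 0.447). Sirup was called in 0 of the 6 single-library fits. On the lists of 68 cytochrome P450 genes, 48 genes of glutathione and glucuronosyl transferases, 22 cuticle protein genes and 10 heat shock genes edgeR called 0, with 9, 7, 4 and 1 at an unadjusted p under 0.05, and DESeq2 called 1 cytochrome P450 gene and 0 of the others.

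The virgins place the mated groups, with the limit that each pair of these comparisons shares libraries. Against virgins at 5 h, 241 genes (2.67%) were called in wildtype-mated heads, 178 of them higher, and 1 gene (0.0111%) in SP-null-mated heads. That gene was t, lower in SP-null-mated heads with a log2 fold change of -0.31 ± 0.0621 (SE, adjusted p 0.0355). At an unadjusted p under 0.05 the SP-null-mated comparison held 569 genes. The 50 genes higher in wildtype-mated than in SP-null-mated heads were also set against virgins. Their median log2 fold change was 0.47 in wildtype-mated and -0.09 in SP-null-mated heads. For the 18 lower genes it was -0.30 and 0.19. The choice of these genes draws both medians apart. For CrebA the log2 fold changes against virgins were 0.79 in wildtype-mated and -0.11 in SP-null-mated heads. They were 1.01 and -0.04 for LKRSDH, 1.31 and -0.52 for GNBP-like3, and 0.23 and -0.62 for bgm. The wildtype-mated count fell to 118, 11 and 15 without repeats A, B and C of the series. The SP-null-mated count was 17 with DESeq2, 16 with the replicate block and 19 with only the libraries of that comparison.

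The 5 h calls were followed through the other times, whose libraries are separate. Before 5 h edgeR called 0 genes between the mated groups at each of the 5 times from 0.5 to 4 h. Without adjustment 166, 255, 608, 574 and 218 genes had a p under 0.05, and DESeq2 called 4 at 4 h and 0 at the other 4 times. With the replicate block edgeR called 8 genes at 2 h and 0 at the other 4 times. The 50 higher genes had a median log2 fold change of 0.06 at 4 h and 0.57 at 5 h, then 0.42, 0.48, 0.32 and 0.21 at 6, 8, 12 and 24 h. In that order of times 26, 29, 21 and 14 of them were called higher again, where 2.47%, 4.4%, 6.49% and 14.4% of all genes were called higher. The 18 lower genes gave 7, 10, 7 and 6 called lower again, where 0.842%, 1.47%, 3.32% and 13.9% of all genes were. At 24 h 1 of the 50 was called lower and 3 of the 18 were called higher. Of the 68 genes, 33 (48.5%) were called in the same direction at 6 h, which were 11.0% of the 299 genes called at 6 h. This number was 12 with only the libraries of each comparison, and 0, 6 and 2 without repeats A, B and C.

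**Figure D4:**
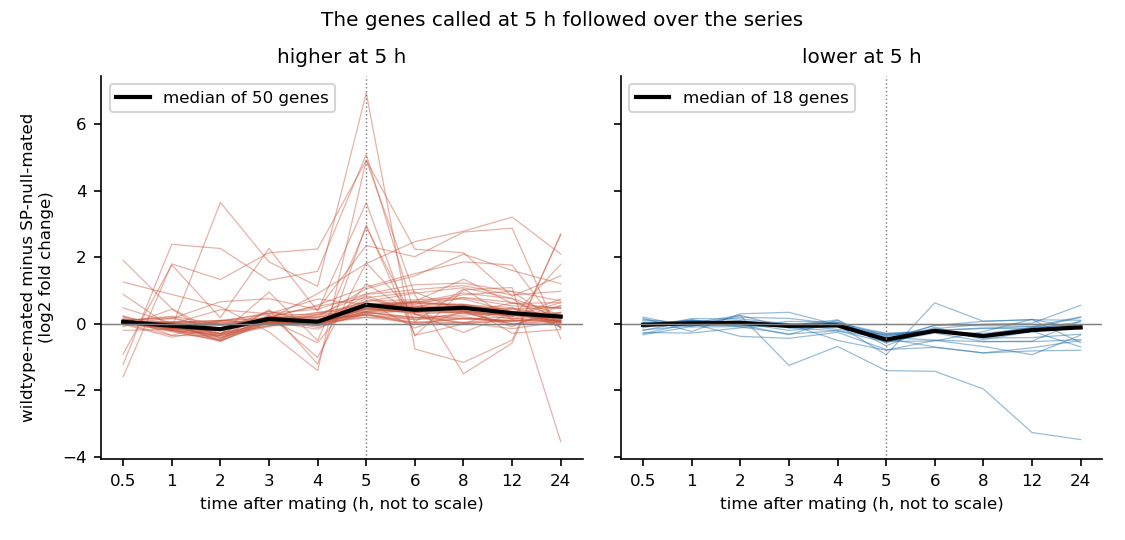
Log2 fold change, wildtype-mated minus SP-null-mated, at each of 10 times (axis not to scale) for the 50 genes called higher and the 18 called lower at 5 h, with each group's median in black. The choice of genes fixes the value at 5 h (dotted line); the median of the higher genes is 0.06 at 4 h and 0.42 at 6 h.

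Several genes called at 5 h were called at later times too, and so were members of the lists of protein synthesis. CrebA had log2 fold changes of 0.43 at 4 h, then 1.17, 1.22 and 0.97 at 6, 8 and 12 h, each called, and 0.02 at 24 h without a call. The values of tun were 0.20, 0.92, 1.09, 0.76 and 0.26 at these times, with the same calls. LKRSDH had 0.21 at 4 h and 1.44, 2.09, 1.60 and 1.20 at 6, 8, 12 and 24 h, each of the later values called. In these 3 genes the means of both mated groups lay above the virgins at 1, 2 and 3 h, as the plot of time courses shows, and from 5 to 12 h the wildtype-mated mean lay above both other groups. Of the 18 ribosome biogenesis genes 13 were called higher at each of 6, 8 and 12 h, and 1 was called higher and 1 lower at 24 h. Before 5 h none was called, and the medians did not share a direction. At 2 h the median was -0.41, with 18 of 18 below 0, at 3 h it was 0.09, with 16 of 18 above 0, and at 4 h it was -0.09, with 16 of 18 below 0. The synthetase genes were called higher in 0, 7 and 13 cases at 6, 8 and 12 h. The endoplasmic reticulum genes were called higher in 1, 6 and 11 cases. Over all genes 2.47%, 4.4% and 6.49% were called higher at these times, so the share rose there too. The medians of the synthetase and endoplasmic reticulum lists at 4 h were -0.10 and -0.15. Cytosolic ribosomal protein genes lay mostly above 0 at 1, 2 and 3 h, in 76, 73 and 83 of 85 cases, with 0 called. Their median was 0.18 at 3 h and -0.001 at 4 h. At both 6 and 8 h it was -0.05, with 57 and 77 of 85 below 0. At 12 h 82 of 85 lay above 0 (median 0.19), and at 24 h 78 lay below it (median -0.35). Of the 85, 47 were called lower at 24 h, where 13.9% of all genes were. CG16898 was lower at 6, 8, 12 and 24 h as well, with values of -1.43, -1.96, -3.27 and -3.48, each called.

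None of the 9 plotted immune genes was called higher at 6, 8, 12 or 24 h, and Dro was called lower at 24 h (-3.54). GNBP-like3 had log2 fold changes of -1.02 and 0.28 at 4 and 6 h, and Bbd of -0.57 and 0.30. The median of the Bomanin list was -0.47 at 4 h, with 13 of 13 genes below 0, then 0.48 at 5 h, 0.02 at 6 h, -0.58 at 8 h, with 13 of 13 again below 0, and 0.38 at 12 h. The antimicrobial list also had medians above 0 at 1, 3 and 4 h, of 1.00, 1.26 and 0.73, with 13, 13 and 10 of 14 genes above 0 and 0 called, and a median of -0.45 at 6 h. At 8, 12 and 24 h its medians were 0.51, 0.53 and 0.30, with 10, 11 and 10 of 14 above 0. At 8 h 1 of its genes was called higher, where 4.4% of all genes were. At 24 h 1 was called lower, where 13.9% of all genes were. Outside the immune genes, bgm, at 0.33 at 6 h, and t, at 0.05, had no later call. Kr-h1 had 0.74 at 4 h, where it was not called, and was called at 6, 8, 12 and 24 h. Tested directly, the difference between the mated groups at 5 h differed from that at 4 h for 1 gene, GNBP-like3, and from that at 6 h for 1 gene, lncRNA:CR45559. At an unadjusted p under 0.05 these tests held 532 and 481 genes, so a change between neighbouring times was not shown for the other genes.

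**Figure D5:**
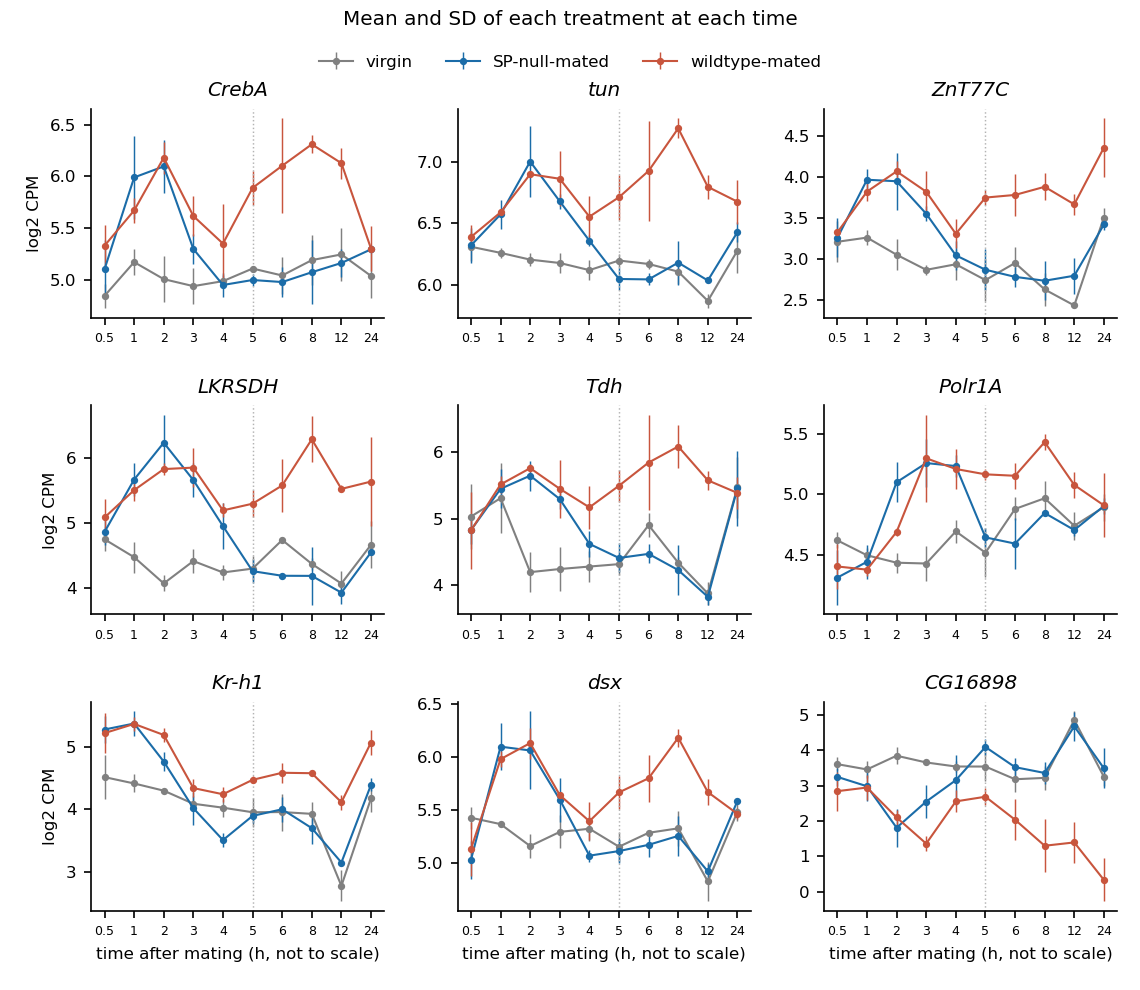
Mean and SD of log2 CPM (n = 3, or 2 for wildtype-mated at 2 and 3 h and virgins at 6 h) for 9 named genes in virgin, SP-null-mated and wildtype-mated heads at each time, with 5 h dotted (axis not to scale). In CrebA, tun, ZnT77C and LKRSDH both mated means lie above virgins at 1, 2 and 3 h, and the wildtype-mated mean lies above both other groups from 5 to 12 h.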

How the data were processed

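RNA was sequenced from female heads with stranded, poly(A)-selected libraries, per the labels' protocols. The values used are whole-number gene counts as deposited, with no normalization and 1 column per library. The submitters' processing notes name Trimmomatic 0.39, STAR 2.7.5a, HTSeq 0.11.2 and the dm6 (BDGP6) genome, and gene positions here are from a BDGP6 annotation. All 9027 gene identifiers of the table were used, of which 8977 matched a symbol and 50 did not. The exon table was not used here.

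The model was edgeR 4.0.16 in R 4.3.3. Low genes were removed by filterByExpr over 30 groups (minimum count 10, minimum total 15), then scaled by TMM and fitted with a robust quasi-likelihood model with 1 mean per group over 87 libraries, leaving 57 residual degrees of freedom. Benjamini-Hochberg adjustment ran over 9024 genes, and genes under 0.05 are called. The SE was taken from the fold change and its F statistic (change over root F). Log2 CPM use a prior count of 2. The fit was tested on simulated data. Alternatives were RLE factors, DESeq2 1.42.0, no filter, a replicate block, each repeat or library left out, and the libraries of a comparison alone. Fits without the wildtype-mated 24 h libraries, and of the 9 libraries at 5 h, were added after seeing the data.

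The comparison, its gene lists and its naming rule were chosen with earlier results of these data known. The rule named called genes with groups that do not overlap and a mean of at least 1 log2 CPM (12 higher and 8 lower by fold change, 5 each way by p), every called member of a list, SPR and fit. The repeat letters pair the libraries, since the series text says that the experiment as a whole was repeated. At 5 h, same-letter libraries deviated from their group means with correlations of 0.168 in A, 0.168 in B and 0.0672 in C. No libraries of a group agreed within sampling noise, with chi-square per degree of freedom from 14.8 to 30.8.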

Additional observations from a re-analysis of the deposited data

Results flagged for a closer look

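The difference between the mated groups changed between neighbouring times for 2 genes, by a test of the difference itself (edgeR's quasi-likelihood test, adjusted over 9024 genes). For GNBP-like3 it was 2.85 ± 0.501 (log2, SE) larger at 5 h than at 4 h, with an adjusted p of 0.00413. It was -1.02 at 4 h and 1.83 at 5 h, and higher in wildtype-mated heads in 3 of 3 repeats at 5 h. The call was lost without repeat A or C of the series, and when the libraries of these times were fitted alone.

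For lncRNA:CR45559 the difference at 5 h minus that at 6 h was -1.56 ± 0.299 (log2, SE), with an adjusted p of 0.0196. It was -0.93 at 5 h, with 15, 15 and 24 counts in wildtype-mated repeats A, B and C and 39, 39 and 35 in SP-null-mated repeats, and 0.63 at 6 h, where it was not called. The call was lost without repeat A, B or C, and DESeq2 called a different gene in this test.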

How the results depend on the processing

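Between the mated groups at 5 h the count of 68 was 67 with RLE factors, 69 with DESeq2 (56 shared), 68 without the filter, 49 with only the libraries of the comparison (22 shared) and 88 without the wildtype-mated 24 h libraries. It moved to 117 with the replicate block and to 44 in the 9 libraries at 5 h (27 shared). Leaving out a repeat or a library gave 0 to 41. For wildtype-mated against virgin heads the count of 241 ran from 11 to 118 without a repeat, and from 241 to 336 otherwise. For SP-null-mated against virgin heads the count of 1 became 2 with RLE factors, 17 with DESeq2, 16 with the replicate block, 19 with only the libraries of the comparison, 23 in the 9 libraries, 8 without the wildtype-mated 24 h libraries and 0 without any 1 repeat.

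The 33 genes called at both 5 and 6 h were 61 with the replicate block, 12 with only the libraries of the comparison and 0 to 6 without a repeat. The tests of 5 h against 4 h and 6 h gave 0 genes with only the libraries of the comparison, in place of 1 each. DESeq2 gave 4 for 4 h. Without a repeat they gave 0 to 1 for 4 h and 0 for 6 h. Of the 37 genes named by rule, 2 reversed in some fit. CecC was at -0.0896 without wildtype-mated repeat B, and SPR, not called in any fit and at -0.0188 in the report's, was at 0.0398 without SP-null-mated repeat B, 0.0148 without wildtype-mated repeat C and 0.0087 without repeat B, and ran from -0.0777 to 0.0398 over all fits without a repeat or library. Without SP-null-mated repeat B the fitted value of CecC was 10.15, no bound, since both remaining SP-null-mated libraries had 0 counts. The replicate block changed none of their calls. Causes were not tested. Counting depth limits the cecropins, SPH93, CG18563 and lncRNA:CR45559, which had under 50 counts in most libraries.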
